A study of Capra hircus with 10 samples.

Results

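The miRNA encoded inside the HOX gene clusters were examined in the lactating mammary gland of goats. They were chosen by name, as the rows of the deposited counts named miR-10a, miR-10b, miR-196a, miR-196b or miR-615 on either arm. The rule found 7 of the 1804 miRNA, from 4 precursors: the 5p and 3p miRNA of mir-10a, mir-10b and mir-196b, and the 5p miRNA of mir-196a. No row carried a miR-615 name, so miR-615 was not analysed here. Small RNA was sequenced from the mammary gland of 10 goats of the Alpine breed, 48 ± 2 days after kidding, when lactation is at its peak, with 1 library per goat. All goats first ate a diet of orchard grass hay and concentrate (35 parts forage to 65 parts concentrate) for 2 weeks. For the last 48 h before slaughter, 4 goats ate this diet ad libitum (Control, libraries L01, L04, L06 and L10) and 6 goats received no food but had free access to water (FD, libraries L02, L03 and L05 together with L07, L08 and L09). Goats with like yields, parity and αS1-casein alleles had been selected. RNA came from about 150 mg of whole gland, a mixture of epithelial, stromal, vascular and blood cells. In such tissue, fewer cells of a type and less RNA per cell cannot be told apart.

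HOX genes encode transcription factors that give cells their position along the body axis, and they lie in clusters in an order that follows the body. miRNA genes of the mir-10 and mir-196 families sit between them and are transcribed with them, and several HOX mRNA are known targets of miR-196 and miR-10. A miRNA finds its targets mainly through its seed, bases 2 to 8 from the 5′ end. Neighbours were taken by gene start alone from the RefSeq gene table of goat assembly ARS1.2, used here for names and order. A long gene that overlaps others can therefore hide a nearer one. By this rule, MIR10A came between the protein-coding genes HOXB5 and HOXB3 on chromosome 19. MIR196A came between HOXB13 and HOXB9 in the same cluster. MIR10B came between HOXD8 and HOXD3 on chromosome 2, and MIR196B came between HOXA9 and HOXA10 on chromosome 4. Counts are per mature sequence and do not show which gene copy gave the reads.

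The mature sequences in the deposited files show 2 pairs of nearly identical miRNA. The 4 miRNA of the 5p arm are given below, 5′ to 3′ and with T for U as deposited, with the seed in capitals.
miR-10b-5p: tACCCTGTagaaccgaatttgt
miR-10a-5p: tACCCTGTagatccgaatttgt
miR-196b-5p: tAGGTAGTttcctgttgttgg
miR-196a-5p: tAGGTAGTttcatgttgttgg
miR-10b-5p and miR-10a-5p were identical at 21 of 22 positions, the difference being A12T (the base of miR-10b-5p, the position from the 5′ end, the base of miR-10a-5p). miR-196b-5p and miR-196a-5p were identical at 20 of 21 positions, with C12A as the difference. Each pair therefore shares its seed, ACCCTGT or AGGTAGT, and among the 1804 miRNA, predicted ones included, 0 others carried the seed of any of the 7. How reads with a mismatch at position 12 were assigned is not given in the sources used here, so the counts within a pair may not be fully separate, and the size of any exchange was not tested.

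The 3p miRNA have other seeds, each carried by no other row.
miR-10b-3p: aCAGATTCgattctaggggaat
miR-10a-3p: cAAATTCGtatctaggggaat
miR-196b-3p: tCGACAGCacgacactgccttc
miR-196b-3p was named after the human miRNA in the files and assigned there to the goat precursor.

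The deposited counts summed to between 4495512 and 7506955 per Control library and to between 5674119 and 9842009 per FD library. Normalized read counts are these counts divided by the size factor of the library. The 490 miRNA whose highest normalized read count was above 28 were compared between the diets with the quasi-likelihood test of edgeR, and the adjusted p was set against a threshold of 0.1. Of the 7 HOX cluster miRNA, 5 passed the count threshold, and miR-10a-3p and miR-196b-3p did not. Over all miRNA tested, 0 had an adjusted p under 0.1 (0%), while 77 had an unadjusted p under 0.05 (15.7%), and DESeq2 gave an adjusted p under 0.1 to 26. The study, with DESeq2 and the same threshold on a slightly smaller set of miRNA, had reported miRNA both higher and lower in FD goats. The main test used here thus departs from the published result. Of the marker lists, all names of the epithelial, stromal and endothelial lists, 1 of 2 myeloid and 2 of 3 erythroid names matched a row, and 0 of the rows matched were at 0 in every library.

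The levels of the HOX cluster miRNA covered more than 5 orders of magnitude, in an order that was the same in all 10 libraries. Over the 10 libraries, miR-10b-5p had 815336 ± 156968 normalized read counts (SD, n = 10). It was followed by miR-10a-5p with 53238 ± 11886, miR-196b-5p with 1709 ± 484 and miR-196a-5p with 563 ± 181 (SD, n = 10 each). The 3p miRNA came last, with 63.5 ± 16.0 for miR-10b-3p, 15.6 ± 3.95 for miR-10a-3p and 3.05 ± 1.57 for miR-196b-3p (SD, n = 10 each). The ranges of neighbours in this order did not overlap. The HOXD miRNA miR-10b-5p was thus 15.3 times as abundant as its HOXB partner miR-10a-5p. The HOXA miRNA miR-196b-5p was 3.04 times as abundant as miR-196a-5p, whose annotated gene lies in the HOXB cluster.

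miR-10b-5p was among the 4 most abundant miRNA of every library and ranked highest of all in L08. It took 12.7% of the counts in L01, 10.7% in L04, 9.50% in L06 and 14.2% in L10, the 4 Control libraries. In FD libraries it took 14.1% in L02, 11.6% in L03, 14.1% in L05, 8.88% in L07, 14.1% in L08 and 15.1% in L09. The counting error was small beside these differences, with a 95% Wilson interval of 8.87% to 8.90% in L07, where the share was lowest. Such intervals cover counting error alone, since the libraries carry no molecular identifiers to tell copies made by PCR. All 7 miRNA together held 12.5% ± 2.22 of all counts in the 4 Control libraries and 13.9% ± 2.47 in the 6 FD libraries (mean ± SD), a difference of 1.41 percentage points that was within the spread between goats (p = 0.367, two-sided exact permutation test over all 210 ways to assign the libraries to the diets). It was 0.624 points without Control library L06, 2.28 points without FD library L07 and 2.29 points without Control library L10.

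In normalized read counts, miR-10b-5p had 804207 in L01, 690822 in L04, 598365 in L06 and 1025500 in L10 among Control libraries. The FD libraries had 913357 in L02, 753717 in L03, 941709 in L05, 593298 in L07, 827141 in L08 and 1005241 in L09. The highest library was the Control library L10 and the lowest was the FD library L07, so the diets overlapped over their whole range. The log2 fold change (FD over Control) was 0.09 (standard error 0.170), with an adjusted p of 0.790 (edgeR, quasi-likelihood F test, Benjamini-Hochberg over all miRNA tested). Without Control library L06 it was -0.0041, so the direction rests on that library.

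miR-10a-5p, known like miR-10b-5p for its place beside HOX genes, had 43543 normalized read counts in L01, 38124 in L04, 39100 in L06 and 63462 in L10 among Control libraries. In FD libraries the values were 60829 in L02, 49074 in L03, 57517 in L05, 43878 in L07, 67341 in L08 and 69513 in L09. Of the 4 Control libraries, 3 lay below every FD library, and L10 lay above 4 of the 6. The log2 fold change was 0.32 (standard error 0.176, adjusted p = 0.400 by edgeR), and it was 0.50 (adjusted p = 0.196, same test) without L10, which decides its size. L10 was thus the highest Control library for all 4 miRNA of the 5p arm.

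**Figure D1:**
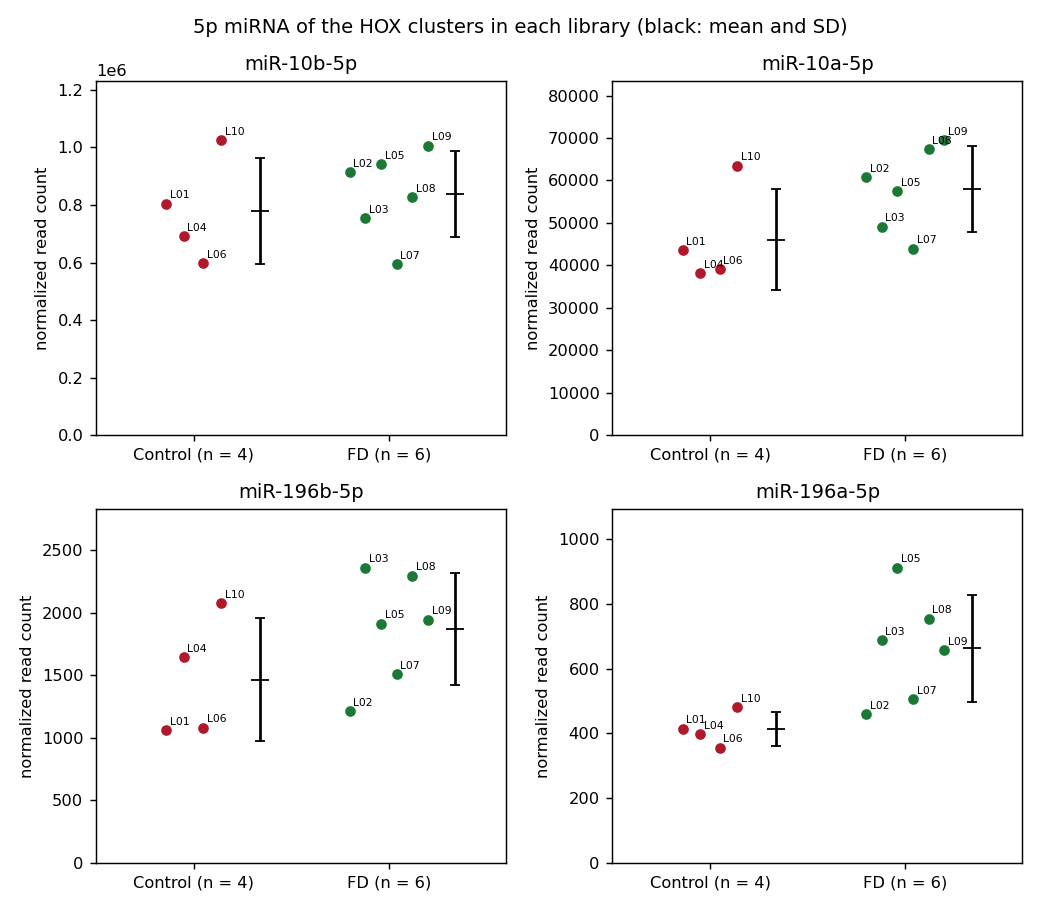
Normalized read counts (y axis, linear from 0) of the 4 miRNA of the 5p arm in each Control (red) and FD (green) library, with the mean and SD of each diet in black. Control and FD libraries overlap for miR-10b-5p over their whole range, while for miR-196a-5p the lowest FD library, L02 with 460 counts, lies just under the highest Control library, L10 with 482.

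miR-196b-5p had 1062 normalized read counts in L01, 1646 in L04, 1080 in L06 and 2076 in L10. The FD libraries had 1211 in L02, 2359 in L03, 1913 in L05, 1506 in L07, 2296 in L08 and 1945 in L09. Control libraries fell into a low pair (L01 and L06) and a higher pair (L04 and L10), and 2 of the 6 FD libraries lay above every Control library. The log2 fold change was 0.34 (standard error 0.237, adjusted p = 0.457 by edgeR). Leaving out L10 gave 0.53, leaving out L01 gave 0.20 and leaving out L06 gave 0.23, the largest shifts. Without 1 FD library the value ran from 0.26 (without L08) to 0.41 (without L02). Its size thus depends on single libraries of both diets.

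miR-196a-5p had the largest diet difference of the HOX cluster miRNA. Its normalized read counts were 415 in L01, 398 in L04, 356 in L06 and 482 in L10 among Control libraries. They were 460 in L02, 688 in L03, 912 in L05, 505 in L07, 755 in L08 and 657 in L09 among FD libraries. In 5 of the 6 FD libraries the value was above every Control library, and only L02 fell below L10. The Control mean was 413 ± 52.5 (SD, n = 4) and the FD mean 663 ± 166 (SD, n = 6), a log2 fold change of 0.67 (standard error 0.203, unadjusted p = 0.00610, adjusted p = 0.195 by edgeR), which did not pass the threshold. DESeq2, fitted to the same 490 miRNA, gave miR-196a-5p a shrunken log2 fold change of 0.61 with an adjusted p of 0.0633, which passed the threshold. By DESeq2 on these same libraries, the study had already listed miR-196a-5p as higher in FD goats. The DESeq2 result given here is thus no independent support. With DESeq2, 5.31% of the miRNA tested passed it and 2.45% passed it with higher values in FD libraries. At least 4 FD libraries above every Control library, a looser state than the 5 seen here, was found for 14.7% of the miRNA tested. The share with at least 5 was not computed. The direction held in each of the 19 other fits that were made, with values from 0.56 (without L05) to 0.74 (without L07).

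As a share of all counts of the library, miR-196a-5p did not overlap between the diets. It made up between 0.00565% and 0.00669% of the counts in Control libraries and between 0.00712% and 0.0137% in FD libraries. The 95% Wilson intervals of the nearest libraries were 0.00613% to 0.00730% in L10 and 0.00648% to 0.00783% in L02, so these 2 libraries cannot be told apart at this depth. Such a separation, with every FD library above every Control library, was seen for 1.84% of the miRNA tested on this scale and for 1.22% in normalized read counts, where 2.24% did not overlap in either direction. Of the 5 HOX cluster miRNA tested, 1 was separated in this way by share and 0 in normalized read counts.

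Beside miR-196a-5p, the summed myeloid, erythroid and endothelial markers were also higher on average in FD libraries. Summed over the rows of each list, the myeloid markers ran from 168 to 423 normalized read counts in Control and from 346 to 925 in FD libraries. Only 1 of the 2 names of that list, miR-223, matched a row. The erythroid markers (2 of 3 names matched) ran from 3750 to 6061 in Control and from 5961 to 8756 in FD libraries, and the endothelial marker miR-126 from 117544 to 144955 and from 136542 to 197735. Their log2 differences were 1.15 for the myeloid, 0.48 for the erythroid and 0.32 for the endothelial list, with two-sided exact permutation p-values of 0.0191, 0.00952 and 0.0381, or 0.0476, 0.0476 and 0.0635 after Benjamini-Hochberg adjustment over the 5 lists. The stromal list, which holds the smooth muscle miRNA miR-143 and miR-145, ran from 690407 to 928572 in Control and from 579433 to 1136233 in FD libraries (log2 difference 0.10, exact permutation p = 0.633, adjusted p = 0.633). The epithelial list, led by the mir-200 family, ran from 221821 to 245827 in Control and from 173950 to 243961 in FD libraries (log2 difference -0.13, exact permutation p = 0.219, adjusted p = 0.274). Within these lists, 0 of the miRNA tested passed the threshold of 0.1 in edgeR's test. Single rows can differ from a sum led by abundant miRNA. Of the 10 epithelial miRNA tested, 8 had a log2 fold change below 0 (median -0.2), and 2 had an unadjusted p under 0.05 by edgeR. Of the 8 stromal miRNA tested, 6 were above 0 (median 0.28), and 0 had an unadjusted p under 0.05. Over all miRNA tested, 50% were above 0 and 15.7% had an unadjusted p under 0.05. The study had already listed miR-223-3p, miR-223-5p, miR-126-3p and miR-451-5p as higher in FD goats from these same libraries. The p-values of the myeloid, erythroid and endothelial lists are thus no independent support. In the study's RT-qPCR, miR-223-3p and miR-126-3p changed in the same direction, but not significantly. The myeloid and endothelial lists each hold only the 5p and 3p miRNA of 1 name. The part of these cells in the values of miR-196a-5p was not tested.

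Taken as a list, the 5 HOX cluster miRNA tested all had a log2 fold change above 0, from 0.09 to 0.67 with a median of 0.32, beside 50% of all miRNA tested above 0. Their number passing an adjusted p of 0.1 was 0 of 5, and 1 of 5 had an unadjusted p under 0.05. The miRNA within each pair are nearly the same sequence and are counted in the same libraries, so these 5 values are not independent.

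**Figure D2:**
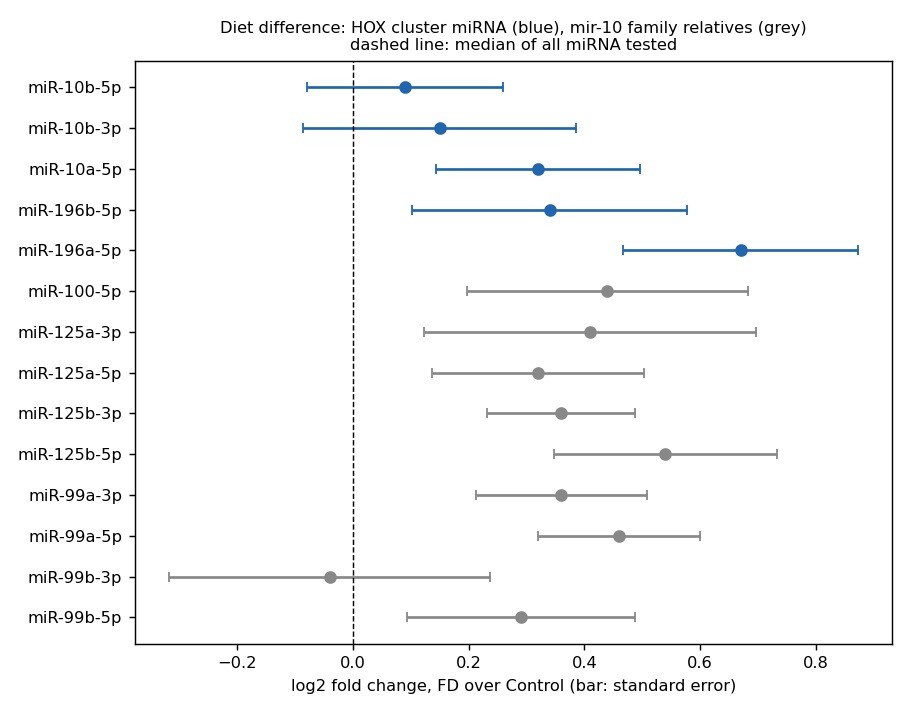
Log2 fold change of FD over Control (x axis) with its standard error for the 5 HOX cluster miRNA tested (blue) and their 9 relatives of the mir-10 family tested (grey), the dashed line being the median of all 490 miRNA tested. miR-196a-5p lies farthest to the right at 0.67, miR-10b-5p at 0.09 and miR-99b-3p alone below 0.

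Ratios of 2 miRNA within a library do not depend on how libraries are scaled. The ratio of miR-10a-5p to miR-10b-5p counts was 0.0541 in L01, 0.0552 in L04, 0.0654 in L06 and 0.0619 in L10. It was 0.0666 in L02, 0.0651 in L03, 0.0611 in L05, 0.0740 in L07, 0.0814 in L08 and 0.0692 in L09. The ratio was higher in FD libraries by 0.23 on the log2 scale, a factor of 1.18, with 4 of 6 FD libraries above every Control library. A two-sided exact permutation test gave p = 0.0429, and 0.257 after Benjamini-Hochberg adjustment over the 6 ratios examined, so the difference did not hold up. Of the counts of all 7 HOX cluster miRNA, miR-10b-5p made up from 93.7% to 94.7% in Control and from 92.2% to 94.0% in FD libraries.

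The ratio of miR-196a-5p to miR-196b-5p ran from 0.232 to 0.391 in Control and from 0.292 to 0.477 in FD libraries. It overlapped between the diets, with L05 highest at 0.477 and L01 next to it at 0.391. The mean was higher in FD libraries by 0.28 on the log2 scale (two-sided exact permutation test, p = 0.171, adjusted p = 0.329), so miR-196a-5p and miR-196b-5p were not shown to differ in their response. It was 0.170 without Control library L10 and 0.420 without Control library L01. The sum of both miR-196 against the sum of both miR-10 of the 5p arm was higher in FD libraries by 0.31 on the log2 scale (exact permutation p = 0.219, adjusted p = 0.329). With 1 library left out this difference ran from 0.187 without Control library L01 (exact permutation p = 0.488) to 0.453 without FD library L02 (exact permutation p = 0.0318, adjusted p = 0.190), the 2 libraries where the ratio was lowest.

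**Figure D3:**
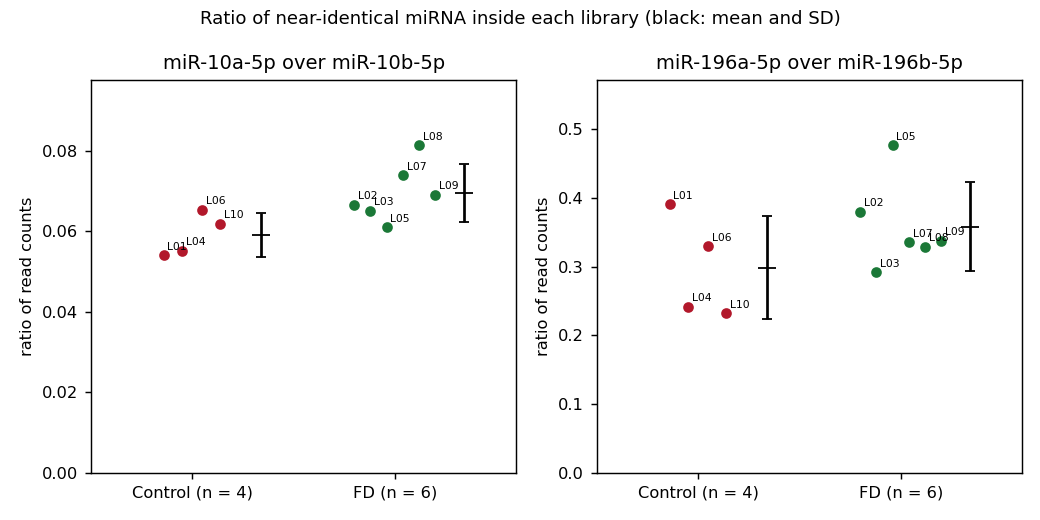
Ratio of read counts (y axis, linear from 0) of miR-10a-5p to miR-10b-5p and of miR-196a-5p to miR-196b-5p in each Control (red) and FD (green) library, with the mean and SD of each diet in black. The miR-10 ratio runs from 0.0541 to 0.0814 over the 10 libraries and the miR-196 ratio from 0.232 to 0.477, with overlap between the diets in both.

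The 3p miRNA were a trace beside their 5p partners. miR-10b-3p had between 27 and 102 counts per library, and there were between 9646 and 20539 counts of miR-10b-5p for each of them. In normalized read counts, miR-10b-3p had 77.4 in L01, 71.6 in L04, 37.8 in L06 and 49.9 in L10, and from 47.9 to 89.4 with a median of 61.6 in FD libraries. Its log2 fold change was 0.15 (standard error 0.236, adjusted p = 0.759 by edgeR) and became -0.0022 without L06, the same library on which the direction of miR-10b-5p rests. In L10, miR-10b-5p was highest of all libraries while miR-10b-3p was second lowest of the Control libraries, which gave L10 the highest ratio of 5p to 3p, 20539.

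miR-10a-3p had between 10 and 39 counts per library, against 27915 to 112568 of miR-10a-5p, and miR-196b-3p had between 1 and 7. The share of the 3p miRNA in the counts of mir-10a was 0.0466% in L06, where it was highest, with a 95% Wilson interval of 0.0272% to 0.0796%, and 0.0196% (0.0106% to 0.0360%) in L03, where it was lowest. These shares rest on 13 and 10 counts of miR-10a-3p. The ratio of 5p to 3p differed between the diets by 0.32 on the log2 scale for mir-10a, -0.08 for mir-10b and -0.20 for mir-196b, with exact permutation p-values of 0.195, 0.752 and 0.752 (adjusted 0.329, 0.752 and 0.752). With no filter on low counts, the log2 fold changes were 0.09 for miR-10a-3p (standard error 0.349) and 0.46 for miR-196b-3p (standard error 0.653), with adjusted p-values of 0.926 and 0.798 over 1804 miRNA by edgeR.

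The spread of the HOX cluster miRNA between goats was near the median of all miRNA tested, which include miRNA with low counts. No comparison with miRNA of like abundance was made. Within diets, the SD of log2 values was 0.299 for miR-10b-5p, 0.292 for miR-10a-5p, 0.413 for miR-196b-5p, 0.310 for miR-196a-5p and 0.382 for miR-10b-3p, beside a median of 0.344 over all miRNA tested. Over the 10 libraries the highest value was 1.73 times the lowest for miR-10b-5p and 2.56 times the lowest for miR-196a-5p. The ratio of miR-10a-5p to miR-10b-5p varied less, by a factor of 1.5 from lowest to highest.

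The Pearson correlation of miR-10b-5p and miR-10a-5p passed an adjusted p of 0.05 as computed first, in TMM-scaled CPM and with the diet means subtracted. It did not without 2 libraries, nor did the Spearman correlation. That of miR-196b-5p and miR-196a-5p passed as computed first but not in TMM-scaled CPM, with the diet means subtracted, without 2 libraries or by Spearman. The counts within a pair may not be fully separate, and the part of this in the correlations was not tested. Across the 10 libraries, log2(normalized read count + 1) of miR-10b-5p and miR-10a-5p had a Pearson correlation of 0.840 (two-sided permutation p = 0.00355, 0.0213 adjusted over the 6 pairs) and a Spearman correlation of 0.782 (permutation p = 0.0106, adjusted p = 0.0637). With the mean of each diet subtracted, the Pearson correlation was 0.887, and without L06 and L07, the 2 libraries farthest from the median, it was 0.818 (permutation p = 0.0143, adjusted p = 0.0859). miR-196b-5p and miR-196a-5p had a Pearson correlation of 0.751 (permutation p = 0.0156, adjusted p = 0.0469) and a Spearman correlation of 0.709 (permutation p = 0.0265, adjusted p = 0.0796). This value was 0.707 in deviations from the diet means and 0.600 without L01 and L06 (permutation p = 0.118, adjusted p = 0.354), so it rests in part on those libraries.

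The genes annotated for miR-10a-5p and miR-196a-5p lie in the HOXB cluster, and their seeds differ. miR-10a-5p and miR-196a-5p had a Pearson correlation of 0.640 (permutation p = 0.0489, adjusted p = 0.0977) and a Spearman correlation of 0.648 (permutation p = 0.0491, adjusted p = 0.0982). Without L04 and L06 it was 0.388, and it was 0.416 in deviations from the diet means. The other 3 pairs had Pearson correlations of 0.399, 0.471 and 0.551 and Spearman correlations of 0.382, 0.406 and 0.576, with permutation p-values from 0.0885 to 0.281 and adjusted p-values from 0.133 to 0.281. Whether the correlations of the 6 pairs differ from each other was not tested.

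**Figure D4:**
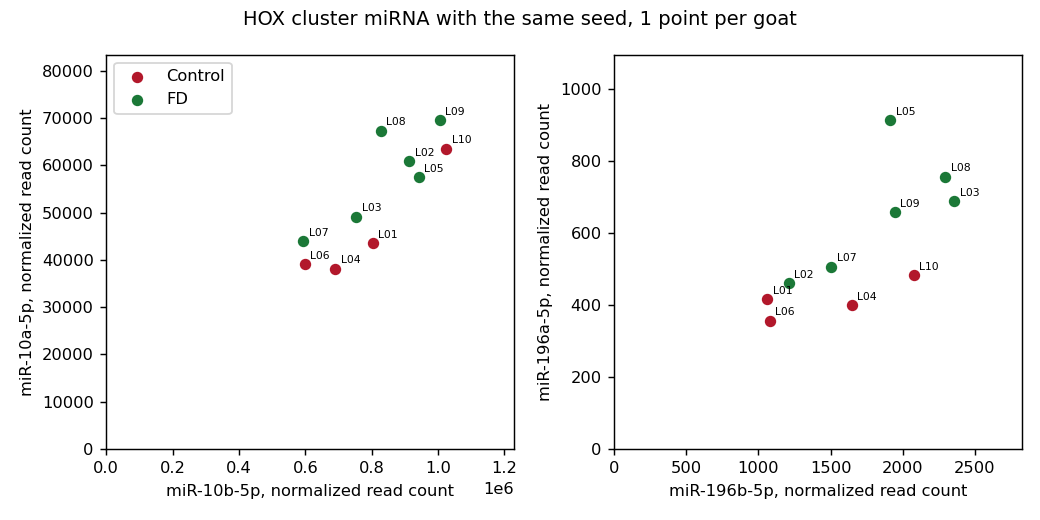
Normalized read counts of the 2 miRNA that share a seed, miR-10a-5p against miR-10b-5p (left) and miR-196a-5p against miR-196b-5p (right), 1 point per Control (red) or FD (green) library on linear axes from 0. The points rise together in both panels, with Pearson correlations on the log2 scale of 0.840 and 0.751, and L10 is the highest Control library on all 4 axes. The counts within a pair may not be fully separate.

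The mir-10 family also holds mir-99a, mir-99b, mir-100, mir-125a and mir-125b, which lie outside the HOX clusters and carry other seeds. The sequences of miR-99a-5p, miR-100-5p and miR-125b-5p are given below. No miR-125 was compared base by base with the HOX cluster miRNA.
miR-99a-5p: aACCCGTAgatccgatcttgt
miR-100-5p: aACCCGTAgatccgaacttgt
miR-125b-5p: tCCCTGAGaccctaacttgt
Here the seed is in capitals, ACCCGTA for miR-99a-5p, miR-99b-5p and miR-100-5p and CCCTGAG for miR-125a-5p and miR-125b-5p. The longest stretch that miR-10a-5p shares with miR-100-5p, GTAGATCCGAA, has 11 bases and is mostly outside the seeds.

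Of the 10 relatives, 9 were tested, and 8 had a log2 fold change above 0. Their median was 0.365, beside 0.321 for the HOX cluster miRNA and 0 for all miRNA tested. An adjusted p under 0.1 was reached by 0 of 9, while 4 of 9 had an unadjusted p under 0.05, all 4 higher in FD libraries, a state shared by 7.55% of all miRNA tested. These 4 were the 5p and 3p miRNA of mir-99a and mir-125b, so they are not independent of each other. The study had already listed miR-99a-5p, miR-99a-3p and miR-125b-3p as higher in FD goats from these same libraries. In its RT-qPCR, miR-99a-5p changed in the same direction, but not significantly. Among the 5p miRNA, miR-125b-5p had 6947 ± 1335 normalized read counts in the 4 Control libraries and 10208 ± 2513 in the 6 FD libraries (mean ± SD), which gave a log2 fold change of 0.54 (standard error 0.193). The values were 0.46 for miR-99a-5p, 0.44 for miR-100-5p, 0.32 for miR-125a-5p and 0.29 for miR-99b-5p. Their adjusted p-values ran from 0.195 to 0.457 by edgeR.

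Among the 485 tested miRNA outside the HOX clusters, those whose log2 values over the 10 libraries were most like miR-10b-5p were miR-191-5p with a Pearson correlation of 0.809 (Spearman 0.818), miR-1388-5p with 0.804 (0.794) and miR-202-5p with 0.718 (0.648). Those most like miR-196a-5p were miR-221-5p with 0.938 (Spearman 0.939), the predicted miRNA chr12_18027-5p with 0.933 (0.867) and miR-125b-5p, a relative of mir-10, with 0.930 (0.939). They were picked as the highest of 485 and get no test. In deviations from the diet means the Pearson correlations were 0.822, 0.799 and 0.80 for the former and 0.887, 0.861 and 0.875 for the latter. Without the 2 libraries farthest from the median they were 0.702, 0.653 and 0.574 for miR-10b-5p and 0.875, 0.879 and 0.873 for miR-196a-5p. The Pearson correlation of miR-196a-5p with miR-196b-5p, its partner by seed, was 0.751. The 3 miRNA most like miR-196a-5p were picked as the highest of 485, so setting them against this partner shows nothing about it. Among them, chr12_18027-5p was also listed by the study as higher in FD goats from these same libraries.

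**Figure D5:**
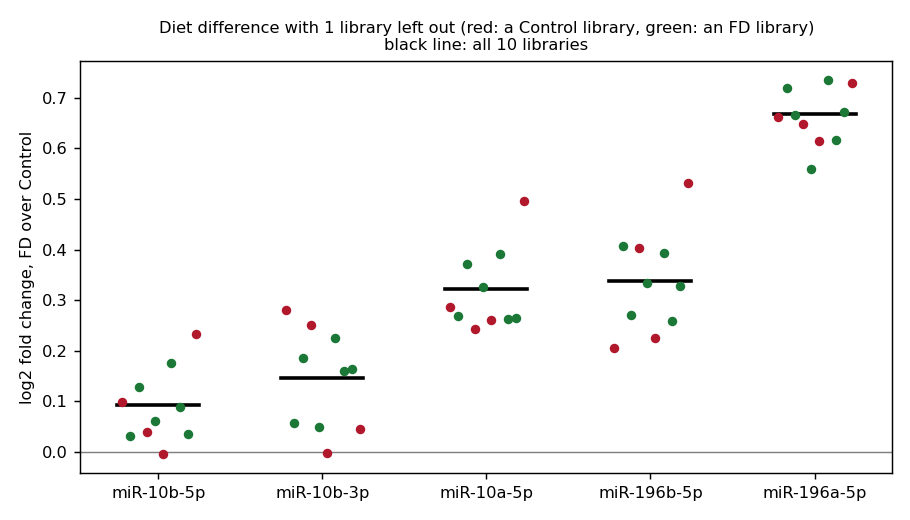
Log2 fold change of FD over Control (y axis) of the 5 HOX cluster miRNA tested with all 10 libraries (black line) and with 1 Control (red) or FD (green) library left out (points). miR-196a-5p stays between 0.56 and 0.74, while miR-10b-5p and miR-10b-3p reach -0.0041 and -0.0022 without L06.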

How the data were processed

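Mammary small RNA of 4 Control and 6 FD goats was analysed, with 1 library for each goat. The authors trimmed adapters with Cutadapt, kept reads of 17 to 28 nt, mapped them to goat genome CHIR_1.0 and counted them with the quantifier of miRDeep2 on known (miRBase v21) and predicted precursors. The submitters' processing notes name CASAVA 1.8.2. The deposited counts are whole reads per mature miRNA and library, not normalized. The deposited columns of normalized values and the table of predicted precursors were not used. Sequences are those of the deposited files.

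Size factors were DESeq2's median of ratios on all 1804 miRNA. The 490 miRNA with a highest normalized count above 28, the threshold of the study's methods, were fitted with edgeR (TMM, glmQLFit, glmQLFTest, two-sided, Benjamini-Hochberg, threshold 0.1). A standard error is the size of the log2 fold change divided by the square root of F. Ratios, shares and marker sums were compared by exact permutation over all 210 ways to assign the libraries to the diets, and correlations by 100000 permutations. The lists were epithelial, stromal, endothelial, myeloid and erythroid markers and the mir-10 relatives. All HOX cluster miRNA were named, with the relatives and the 3 miRNA most like miR-10b-5p and miR-196a-5p. Members and lists were chosen with earlier results of these data known. The alternatives tried were limma-voom, DESeq2 (Wald test, shrunken fold changes), robust dispersions, other scalings and filters, and each library left out. The software was Python 3.11.15 with pandas 2.3.3, matplotlib 3.10.9, scipy 1.17.1 and numpy 2.4.6, and R 4.3.3 with limma 3.58.1, DESeq2 1.42.0 and edgeR 4.0.16.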

Additional observations from a re-analysis of the deposited data

How the results depend on the processing

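DESeq2's Wald test raised the number of miRNA with an adjusted p under 0.1 from 0 to 26 and gave miR-196a-5p a log2 fold change of 0.611, past the threshold. DESeq2 was also the test with which the study had listed miR-196a-5p from these libraries. Without a filter on low counts edgeR made 5 calls, none of them a HOX cluster miRNA, and with any library left out 0. With 1 library left out, log2 fold changes ran from -0.0041 to 0.232 for miR-10b-5p, from -0.0022 to 0.281 for miR-10b-3p, from 0.243 to 0.495 for miR-10a-5p, from 0.205 to 0.531 for miR-196b-5p and from 0.560 to 0.736 for miR-196a-5p. The log2 difference of the 5p to 3p ratio ran from -0.237 to 0.127 for mir-10b, from 0.162 (without Control library L06) to 0.420 (without Control library L10) for mir-10a and from -0.540 to 0.356 for mir-196b, and it was 0.0889 for mir-196b with 1 added to each count. The correlation of miR-10b-5p and miR-10a-5p was 0.818 without the 2 farthest libraries, and that of miR-196b-5p and miR-196a-5p was 0.742 in TMM-scaled CPM, 0.600 without the 2 farthest libraries and 0.707 in deviations from diet means, each no longer past an adjusted p of 0.05. The deviations were added after the data were seen. The cause of these changes was not tested. No paired analysis was possible because the labels do not pair the goats of the diets. Depth is lowest for miR-196b-3p, with 1 to 7 counts per library.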
